A study of Mus musculus with 7 samples.

Results

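Chemokine receptors are described here in type 2 innate lymphoid cells (ILC2s) sorted from mouse hearts. The receptors were chosen by name, as the 9 genes Ccr2, Ccr4, Ccr6, Ccr7, Ccr8, Ccr9, Cxcr3, Cxcr4 and Cxcr6, and each had 1 row among the 55335 gene identifiers measured. All 9 passed the filter on low counts, which kept 17015 genes. RNA was measured in 3 libraries of naive hearts and in 4 libraries of cardiac allografts, which were BALB/c hearts placed in C57BL/6 (B6) recipients and taken on day 7, a combination that rejects acutely. The cells were sorted as CD45+ Lineage- ST2+, and every library pooled several hearts. Libraries and not animals were therefore the replicates. The series text calls them biological replicates, and every sample carries a time label of 7 days, the naive ones too. The labels gave no genotype, sex, age or sequencing batch, and no strain for the naive hearts, so a strain difference and transplantation cannot be told apart. ILC2s in a graft can come from the donor heart or from the recipient, and the sort as described did not separate these origins.

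Chemokine receptors are proteins that cross the cell membrane and couple to inhibitory G proteins. They let a leukocyte move along a gradient of a small secreted protein, the chemokine, and the set of receptors on a lymphocyte helps to decide which tissue it enters and whether it stays. In ILC2s, Ccr8 and Cxcr6 are receptors known from tissue-resident cells, Ccr2, Ccr4 and Ccr9 have been tied to traffic from the bone marrow and into barrier tissues, and Ccr7 is the receptor for entry into lymph nodes.

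The 7 libraries held between 29107326 and 53044907 counts, so 0 counts allowed up to 0.0566 to 0.103 CPM (counts scaled to the library total), a limit that covers counting error only. Fewer genes had a count in naive replicates 1 and 3 (15820 and 13864) than in naive replicate 2 (20254) or the allografts (19235 to 21354). A value of 0 in naive replicates 1 and 3 is therefore weaker evidence of absence than the limit implies. Naive replicate 2 stood apart from the other libraries and went against its label. Its ILC2 markers were low, with 6.79 CPM of Il1rl1, which encodes the sorted protein ST2, against 343 to 756 CPM in the other 6 libraries. Ptprc, which encodes the pan-leukocyte protein CD45, was at 11.7 CPM there and at 239 to 739 CPM elsewhere. Mitochondrial transcripts made up 26.5% of its counts and at most 3.11% elsewhere. Genes of natural killer cells summed to 18.6 to 174 CPM in the naive and 235 to 335 CPM in the allograft libraries, of mast cells and basophils to 65.6 to 728 and 294 to 323 CPM, of endothelium to 8.26 to 514 (highest in naive replicate 2) and 34.0 to 48.0 CPM, and of cardiomyocytes to at most 9.22 CPM. Each result below is given with and without naive replicate 2. In bulk RNA, fewer cells of a type and less RNA per cell cannot be told apart.

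The receptors with the highest levels, Ccr8 and Cxcr6, lie on chromosome 9, as do Ccr4, Ccr9 and Ccr2. In the GENCODE M21 annotation of GRCm38 (mm10, the build in the submitters' processing notes) these genes span chr9:120092114-120094906 (Ccr8), chr9:123806475-123811760 (Cxcr6), chr9:114490316-114504916 (Ccr4, minus strand), chr9:123678439-123784330 (Ccr9) and chr9:124101950-124113557 (Ccr2). RefSeq promoter sequence on GRCm38.p6 was matched for 8 of the 9 receptors. Upstream sequence is shown for Ccr8 and Cxcr6, because they held most of the receptor transcripts in 6 libraries, and for Ccr4, because 1 naive library decided whether it passed the test. Each window has 200 bases, from 250 to 51 bases before the start site, 5′ to 3′ on the gene's strand, and these 3 overlap no annotated exon. The Ccr4 window lies inside the GENCODE span of Ccr4 given above. It is upstream of a RefSeq start site within that span and not of the 5′ end of the span. Capitals mark letters of a GATA motif in Ccr8 and of an AP-1 motif in Ccr4, and Cxcr6 has neither.
Ccr8, chr9:120091883-120092082, plus strand: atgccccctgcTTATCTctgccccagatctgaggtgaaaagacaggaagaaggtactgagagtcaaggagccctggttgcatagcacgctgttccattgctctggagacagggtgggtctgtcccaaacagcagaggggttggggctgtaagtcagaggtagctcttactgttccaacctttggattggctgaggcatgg
Cxcr6, chr9:123806227-123806426, plus strand: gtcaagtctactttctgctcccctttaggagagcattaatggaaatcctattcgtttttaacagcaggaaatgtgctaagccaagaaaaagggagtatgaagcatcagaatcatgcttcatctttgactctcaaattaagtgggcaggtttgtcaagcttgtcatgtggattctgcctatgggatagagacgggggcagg
Ccr4, chr9:114496595-114496794, minus strand: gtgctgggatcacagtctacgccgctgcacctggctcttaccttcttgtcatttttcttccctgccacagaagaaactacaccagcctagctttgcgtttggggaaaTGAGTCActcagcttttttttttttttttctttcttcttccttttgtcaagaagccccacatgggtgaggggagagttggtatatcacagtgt

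All letters were searched on both strands. For GATA factors, the family of the ILC2 regulator GATA3, they were AGATAA and TGATAA. They occurred in 3 of the 9 receptor windows (those of Ccr8, Ccr2 and Ccr6, which has a pair of start sites) and in 14.2% of 32851 windows of the same length at all genes. AP-1 letters, TGAGTCA or TGACTCA, occurred in 1 receptor window (Ccr4) and in 3.61% of all windows. ETS letters (AGGAAG) occurred in 4 receptor windows and in 23.9% of all, and RUNX letters (TGTGGT) in 1 and in 11.6%. T-box (GGTGTG) and ROR (AGGTCA) letters occurred in 0 receptor windows, against 13.4% and 11.4% of all. These matches are descriptions of sequence, and no binding was measured.

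Ccr8 and Cxcr6 were the dominant receptors of these cells. Per gene length, as FPKM (fragments scaled to gene length and depth), Ccr8 stood at 952, 16.5 and 2070 in naive replicates 1 to 3, and at 1205, 1004, 1144 and 942 in allograft replicates 1 to 4. Cxcr6, the receptor for the membrane-bound chemokine Cxcl16, stood at 716, 10.01 and 374 FPKM in the naive and at 550, 408, 505 and 375 FPKM in the allograft libraries. These were the highest receptor levels of the 9 in 7 of 7 libraries, with Ccr8 first in each. Among all genes in the 6 libraries other than naive replicate 2, Ccr8 ranked between 20 and 60 and Cxcr6 between 81 and 170 by FPKM. In naive replicate 2 they ranked 2249 and 3260.

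The other receptors were lower by a wide margin. In the allografts, FPKM averaged 99.8 ± 15.2 (SD, n = 4) for Ccr7, 54.5 ± 16.3 for Ccr2, 14.9 ± 1.92 for Cxcr4, 10.5 ± 1.43 for Ccr4, 2.14 ± 0.315 for Ccr9, 1.83 ± 1.33 for Cxcr3 and 0.352 ± 0.331 for Ccr6. The ranges of neighbours in this order did not overlap across the 4 allografts, except for Ccr9 with Cxcr3 and Cxcr3 with Ccr6. The length behind the FPKM of Ccr9 was that of its merged exons, 10260 bases, whereas its principal transcript has 5197 bases, so its level per length depended on the annotation. Part of those exons (2223 bases) is shared with other annotated genes, on both strands, and any use of strand in the counting was not stated. In naive replicates 1 and 3 the third place belonged to Ccr2 (26.6 and 67.0 FPKM) and not to Ccr7 (2.37 and 13.0 FPKM). In all 4 allografts Ccr7 held the third place, as it did in naive replicate 2 (6.12 FPKM).

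**Figure D1:**
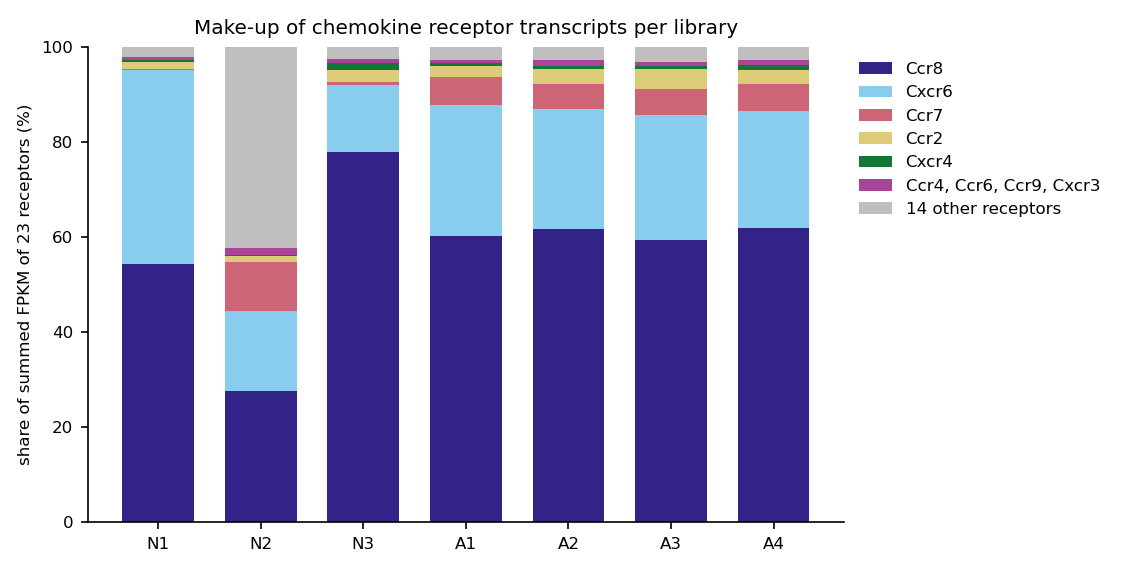
Stacked bars give the share (%) of the summed FPKM of 23 chemokine receptors held by each of 5 receptors, by the 4 remaining members together and by 14 other receptors, in naive (N1 to N3) and allograft (A1 to A4) libraries. Ccr8 and Cxcr6 together held 85.6% to 95.3% outside N2 and 44.5% in N2, and the Ccr7 band was 5.32% to 5.84% in the allografts against 0.135% in N1 and 0.492% in N3.

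Of the summed FPKM of 23 chemokine receptors, the 9 members held 96.8% to 97.9% in the 6 libraries other than naive replicate 2. Ccr8 and Cxcr6 alone held 95.3% in naive replicate 1, 92.1% in naive replicate 3, and between 85.6% and 87.8% in the allografts. The Ccr7 share was 0.135% and 0.492% in those naive libraries and 5.32% to 5.84% in the allografts. Naive replicate 2, where the receptors summed to 59.5 FPKM against at least 1523 FPKM elsewhere, had a Ccr7 share of 10.3%.

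Comparison of allografts with naive hearts asked which receptors differ between ILC2s sorted from grafts, of either origin, and those sorted from naive hearts. Of the 9 receptors, 0 reached an adjusted p of 0.05 in edgeR's quasi-likelihood test over all genes, where 6 genes (0.0353%) did. At an unadjusted p under 0.05 there were 2, Ccr7 and Ccr6, against 10.3% of all genes. DESeq2 called the same 2 receptors, against 4.35% of all genes with a count, and gave no p for Ccr4 and Cxcr3. With limma on log2 FPKM, the test called Ccr7 alone with either pseudocount (1.18% and 0.447% of all genes). Without naive replicate 2, edgeR called 0 of the 9, against 3.1% of all genes. Without naive replicate 1 it called Ccr7 and Ccr4, against 0.568% of all genes. Every allograft library lay above every naive library for 2 of the 9, again Ccr7 and Ccr6, against 12.5% of all genes, and below for 0 of the 9, against 2.15%. Without naive replicate 2 these counts were again 2 and 0 of the 9, against 21.6% and 7.49% of all genes. Ccr6 had 0 counts in every naive library and passed the low-count filter only through the allografts, where it is high. Its place among the edgeR and library counts above was thus largely fixed by that filter and is no support for a difference. The median log2 fold change of the 9 was 0.33, against -0.01 for all genes tested, and without naive replicate 2 it was -0.26 against 0.23.

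**Figure D2:**
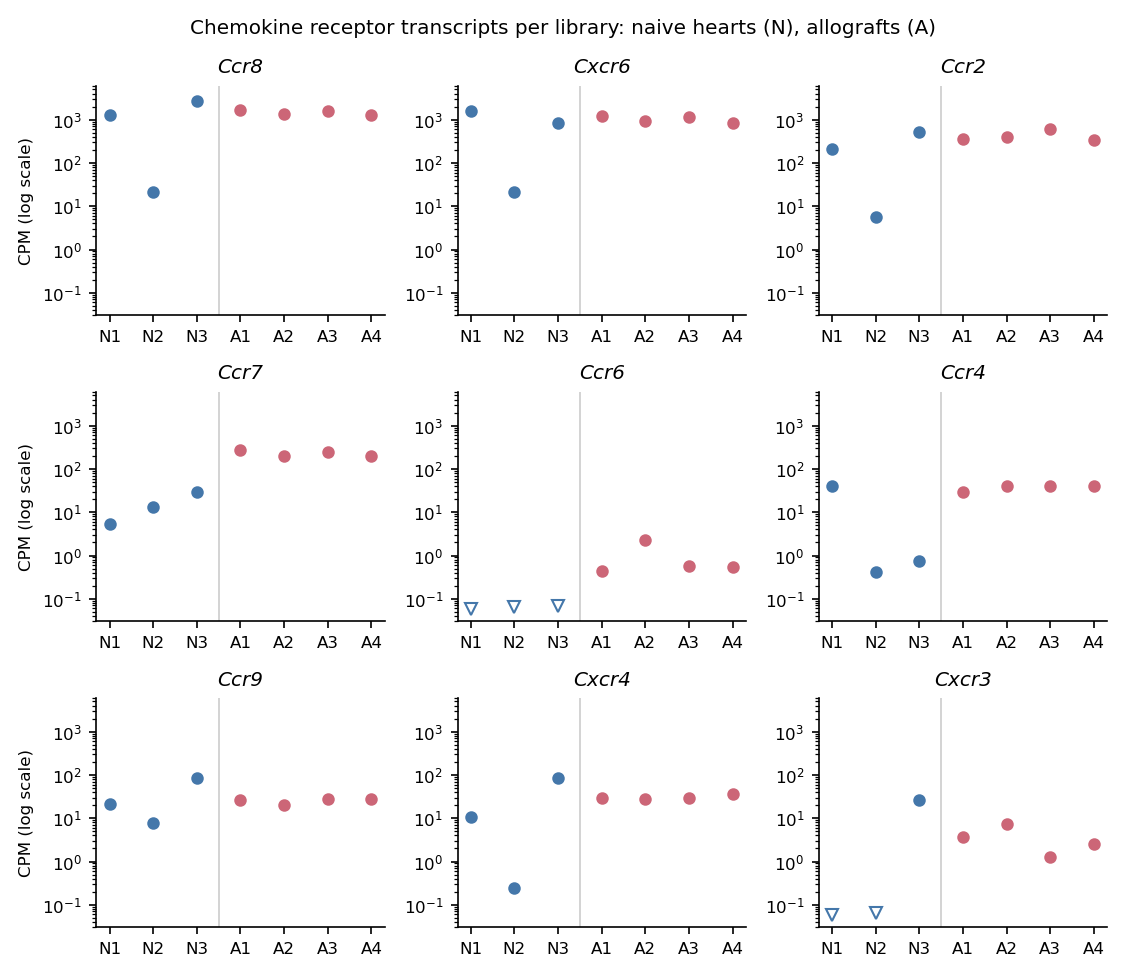
Each panel gives 1 receptor in CPM on a log scale for naive (N1 to N3, blue) and allograft (A1 to A4, red) libraries, and open triangles mark the CPM of 3 counts where a library had 0. The groups separate for Ccr7 and Ccr6, N2 lies below the allografts in every panel, and N3 lies above them for Ccr8, Ccr9, Cxcr3 and Cxcr4.

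Ccr7, which guides lymphocytes and dendritic cells towards Ccl19 and Ccl21 in lymph vessels and lymph nodes, was the receptor with the clearest difference. It measured 5.37, 13.2 and 29.2 CPM in naive replicates 1 to 3 and 269, 198, 247 and 199.8 CPM in allograft replicates 1 to 4. The lowest allograft was well above the highest naive library, and the naive libraries spread over a wider ratio (5.44) than the allografts (1.36). The log2 fold change, allograft over naive, was 3.62 (SE 0.624, edgeR adjusted p = 0.144). Without naive replicate 2 it was 3.66 (SE 0.751, edgeR adjusted p = 0.0577). Without naive replicate 1 it was 3.19 (edgeR adjusted p = 0.0413), and without naive replicate 3 it was 4.21 (edgeR adjusted p = 0.123). Across 14 alternatives the adjusted p ran from 3.7e-05 to 1.0, and 4 of them passed.

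Markers of other cell types that carry Ccr7 differed between the same libraries. Summed dendritic cell genes (10 listed) reached 12.7, 33.5 and 34.9 CPM in naive replicates 1 to 3 and 92.2 to 119 CPM in the allografts, with all 10 detected in each allograft and 1 to 8 in the naive libraries. In naive replicates 1 and 3, the libraries with the fewest genes that had a count, 7 of the 10 were at 0, among them Flt3 and Itgax. Of the 10, 6 were higher in every allograft than in every naive library, against 12.5% of all genes. The other 4 overlapped (Xcr1, Siglech, Cd209a and Fscn1, the last with 0, 2.79 and 3.05 CPM in the naive and 0.727 to 2.64 CPM in the allograft libraries). Among the 6, Zbtb46, a transcription factor of conventional dendritic cells, was at 0, 5.06 and 0.895 CPM in the naive and at 27.2 to 44.3 CPM in the allograft libraries. B cell genes (8 listed) summed to 117, 28.0 and 0 CPM in the naive and to 92.3 to 150 CPM in the allograft libraries, and the B cell receptor component Cd79b made up most of the first value. T cell genes (10 listed) summed to 348, 33.5 and 1086 CPM against 1083 to 1282 CPM, mostly from T cell receptor constant segments and Cd3g, while Cd3e stayed at or below 1.24 CPM in every library. Other lists also held genes higher in every allograft: 3 of 8 B cell, 4 of 10 T cell and 4 of 7 natural killer cell genes. It was 2 of 9 monocyte and macrophage genes, 1 of 8 mast cell and basophil genes, and 0 of the endothelial and cardiomyocyte genes. The part of these cells in the Ccr7 difference was not tested.

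**Figure D3:**
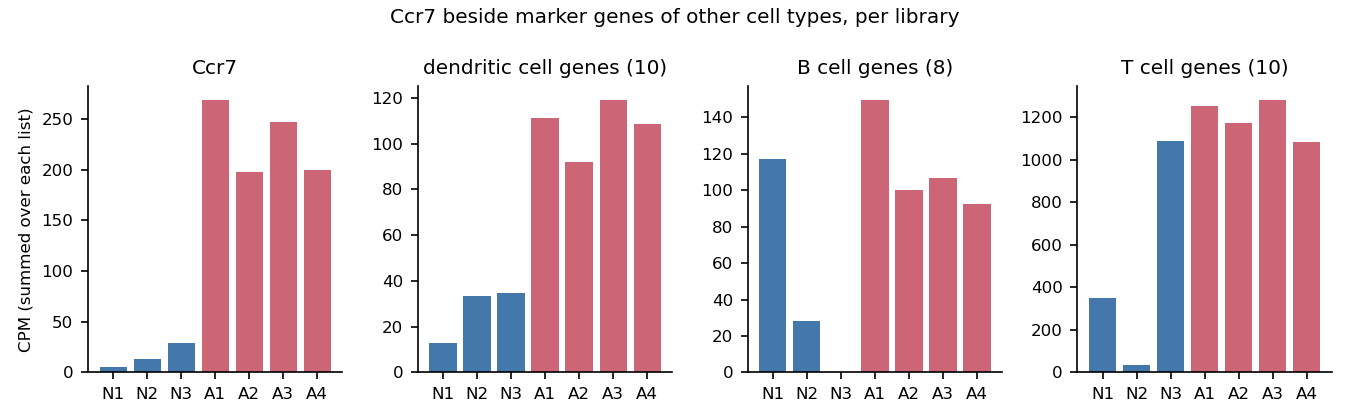
Bars give the CPM of Ccr7 and the summed CPM of dendritic cell, B cell and T cell marker genes in naive (N1 to N3, blue) and allograft (A1 to A4, red) libraries, each panel on its own axis from 0. Ccr7 (198 to 269 CPM) and the dendritic cell sum (92.2 to 119 CPM) are higher in all 4 allografts than in any naive library, whereas the B cell and T cell sums overlap between groups.

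Ccr6, the receptor for Ccl20 and a marker of lymphoid tissue inducer-like and B cells, had 0 counts in the 3 naive libraries. It had 19, 74, 23 and 16 counts in allograft replicates 1 to 4, or 0.432, 2.28, 0.563 and 0.550 CPM. All 4 allografts were above the limit that 0 counts allow, and replicate 2 held most of the counts. Measured against a floor of 3 counts per naive library, Ccr6 was at least 15.0-fold higher in allografts (edgeR adjusted p = 0.153, 0.0915 without naive replicate 2, and 1.8e-04 with DESeq2). That bound covers counting error only, and naive replicates 1 and 3 had fewer genes with a count than any allograft. The bound rested in part on allograft replicate 2, and without it Ccr6 was at least 8.07-fold higher. Across 13 alternatives the adjusted p ran from 1.8e-04 to 1.0, and 1 passed. Its level was the lowest of the 9 in all 4 allografts, at 0.154 to 0.847 FPKM.

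Ccr4, which binds Ccl17 and Ccl22 and is known from type 2 helper T cells, split the naive libraries. It measured 39.7 CPM in naive replicate 1 but 0.418 and 0.734 CPM in naive replicates 2 and 3. The allografts held 30.0, 39.6, 40.4 and 39.7 CPM. The allografts were thus level with naive replicate 1 and far above the other naive libraries. The log2 fold change was 1.46 (SE 1.35, edgeR adjusted p = 0.814), and 0.87 without naive replicate 2 (edgeR adjusted p = 0.762). Without naive replicate 1 it was 5.75 (SE 0.512, edgeR adjusted p = 0.0217), so 1 naive library decided whether Ccr4 passed. The gene whose profile over the 7 libraries was most like that of Ccr4 was Top2a, the topoisomerase of dividing cells, with a root mean square difference of centred log2 CPM of 0.184. Top2a measured 256, 2.70 and 4.86 CPM in naive replicates 1 to 3 and 172 to 309 CPM in the allografts. Gm5547 and Tk1, a thymidine kinase of S phase, followed at 0.280 and 0.496.

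Ccr2, the receptor for Ccl2 and the monocyte chemoattractants, followed Ccr8 and Cxcr6 in naive replicates 1 and 3 and did not separate the groups. It measured 206, 5.74 and 514 CPM in naive replicates 1 to 3 and 366, 388, 614 and 339 CPM in allograft replicates 1 to 4. Only naive replicates 1 and 2 fell below the allograft range. The log2 fold change was 0.77 (SE 1.02, edgeR adjusted p = 0.887), and 0.18 (SE 0.438, edgeR adjusted p = 0.875) without naive replicate 2. Monocyte and macrophage genes, which come from cells that also carry Ccr2, summed to 2.49, 282 and 453 CPM in the naive and to 202 to 329 CPM in the allograft libraries (9 of 10 listed genes had 1 identifier). In naive replicate 1, where 1 of those 9 genes was detected (Lyz2), Ccr2 measured 206 CPM.

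Ccr8, the receptor for Ccl1, measured 1280, 21.2 and 2754 CPM in naive replicates 1 to 3. The allografts held 1649, 1364, 1549 and 1279 CPM. The allografts lay within a ratio of 1.29, and naive replicate 1 lay at the lower end of their range, naive replicate 2 below it and naive replicate 3 above it. Between the groups the log2 fold change was 0.07 (SE 1.06, edgeR adjusted p = 0.996), and -0.52 (SE 0.329, edgeR adjusted p = 0.413) without naive replicate 2. With 2 SE to either side, the second value spans -1.18 to 0.14, and changes within that span could not be told from 0 with these libraries. Its ligand Ccl1, which ILC2s are known to make, was at 12.3, 2.37 and 55.1 CPM in the naive and at 10.03 to 16.1 CPM in the allograft libraries, overlapping in the same way.

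Cxcr6 measured 1582, 21.1 and 818 CPM in naive replicates 1 to 3 and 1238, 910, 1124 and 838 CPM in allograft replicates 1 to 4. All 4 allografts lay between naive replicates 3 and 1. Across all 7 libraries the log2 fold change was 0.33 (SE 0.970, edgeR adjusted p = 0.965), and -0.26 (SE 0.308, edgeR adjusted p = 0.713) without naive replicate 2, with 2 SE spanning -0.88 to 0.36. Cd53, a leukocyte tetraspanin, had the profile most like that of Cxcr6 (root mean square difference 0.147 over 7 libraries), followed by the kinase gene Zap70 (0.204) and Hist1h4m (0.205).

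Ccr9, the receptor for Ccl25 that directs lymphocytes to the gut, measured 21.3, 7.85 and 84.5 CPM in naive replicates 1 to 3. The allografts held 26.0, 20.1, 28.0 and 27.9 CPM. Naive replicate 1 fell inside the allograft range and naive replicate 3 above it. In the fit of all 7 libraries the log2 fold change was -0.66 (SE 0.678, edgeR adjusted p = 0.839). Leaving out naive replicate 2 gave -1.12 (SE 0.545, edgeR adjusted p = 0.312). It was 0.64 (edgeR adjusted p = 0.445) without naive replicate 3, so the direction rested on that library.

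Cxcr4, the receptor for Cxcl12 that holds leukocytes in the bone marrow, measured 10.8, 0.242 and 85.2 CPM in naive replicates 1 to 3. The allografts held 29.7, 28.3, 29.7 and 37.1 CPM, above naive replicates 1 and 2 and below naive replicate 3. On the log2 scale the fold change was -0.10 (SE 1.26, edgeR adjusted p = 0.994), -0.69 (edgeR adjusted p = 0.664) without naive replicate 2 and 2.49 (edgeR adjusted p = 0.345) without naive replicate 3.

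Cxcr3, the receptor of type 1 lymphocytes for the interferon-induced chemokines Cxcl9, Cxcl10 and Cxcl11, was found in 1 of the 3 naive libraries. It had 0 counts in naive replicates 1 and 2, which allows up to 0.0566 and 0.0659 CPM, and 25.8 CPM (1125 counts) in naive replicate 3. The allografts held 3.61, 7.44, 1.27 and 2.47 CPM, between those extremes. Between the groups the log2 fold change was -1.29 (SE 2.28, edgeR adjusted p = 0.930) and -1.88 (edgeR adjusted p = 0.662) without naive replicate 2. Without naive replicate 3 every allograft lay above the remaining naive libraries (edgeR adjusted p = 0.141). Of the 10 T cell genes, 2 were highest in naive replicate 3, Cd3d (32.5 CPM, at most 8.64 CPM in the other 6 libraries) and Cd4 (11.6 CPM, at most 0.721 CPM elsewhere). The other 8 were highest in an allograft, among them Cd28 (1.03 CPM in naive replicate 3 and 18.3 to 20.6 CPM in the allografts), Cd8a and Cd8b1 were at 0 in naive replicate 3, and the T cell sum there (1086 CPM) lay at the lower end of the allograft range. The part of T cells in that Cxcr3 level was not tested. Tpsab1, a mast cell tryptase, had the profile most like that of Cxcr3 (root mean square difference 0.528), with 0, 0 and 45.2 CPM in the naive and 1.42 to 6.88 CPM in the allograft libraries.

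**Figure D4:**
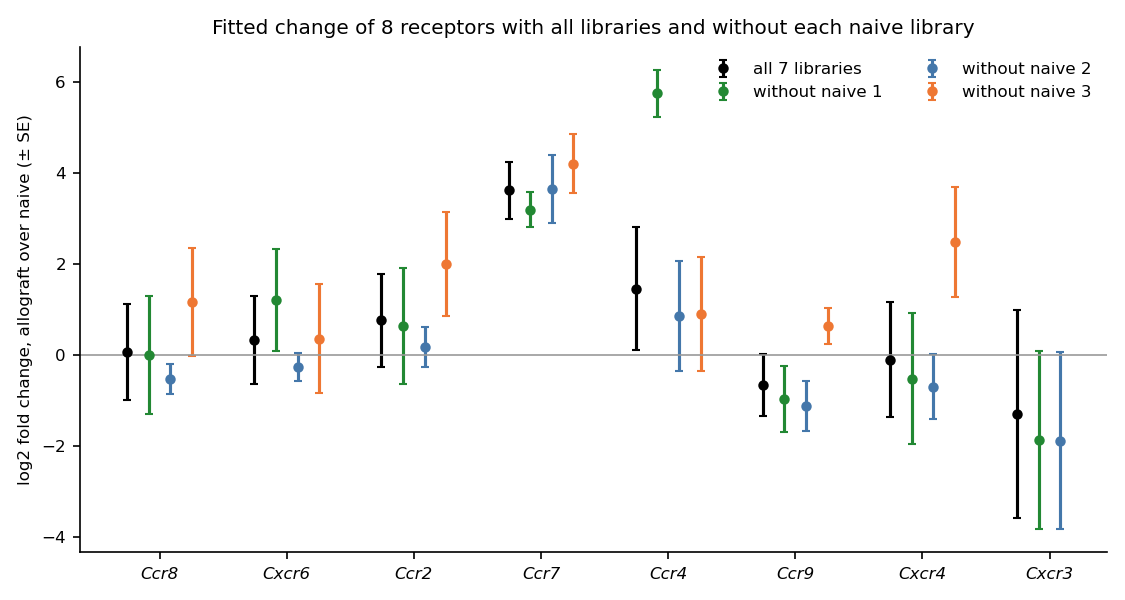
Points give the log2 fold change of 8 receptors, allograft over naive, with its SE, from edgeR fits on all 7 libraries and without each naive library in turn; Ccr6 and the fit of Cxcr3 without naive replicate 3 are left out because every naive library then had 0 counts. Ccr7 stays between 3.19 and 4.21, Ccr4 moves from 1.46 to 5.75 without naive replicate 1, and the points of Ccr8, Cxcr6, Ccr9 and Cxcr4 lie on both sides of 0.

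Because CD45 itself was low in naive replicate 2, the receptors were also expressed relative to Ptprc in the same library, as CPM per 100 CPM of Ptprc. On that scale Ccr2 stood at 86.1, 49.0 and 90.9 in naive replicates 1 to 3 and at 52.5 to 122 in the allografts, so naive replicate 2 came close to the other libraries. Ccr8 was at 535, 181 and 487 in the naive and at 184 to 419 in the allograft libraries, below naive replicates 1 and 3 in each. The separation of Ccr7 did not hold on this scale: naive replicate 2 reached 113, above the allografts at 26.8 to 68.3, while naive replicates 1 and 3 were at 2.25 and 5.17. Ccr9 lay below every naive library (8.92, 67.0 and 15.0) in all 4 allografts (2.72 to 6.60). Relative to Ptprc, 1 of the 9 receptors was higher in every allograft, Ccr6, against 2.97% of all genes, and 1 was lower in every allograft, Ccr9, against 11% of all genes. For Ccr6, the limit set by the low-count filter holds on this scale too. Ptprc was 394 to 739 CPM in the allografts, so this scale adds its own spread.

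**Figure D5:**
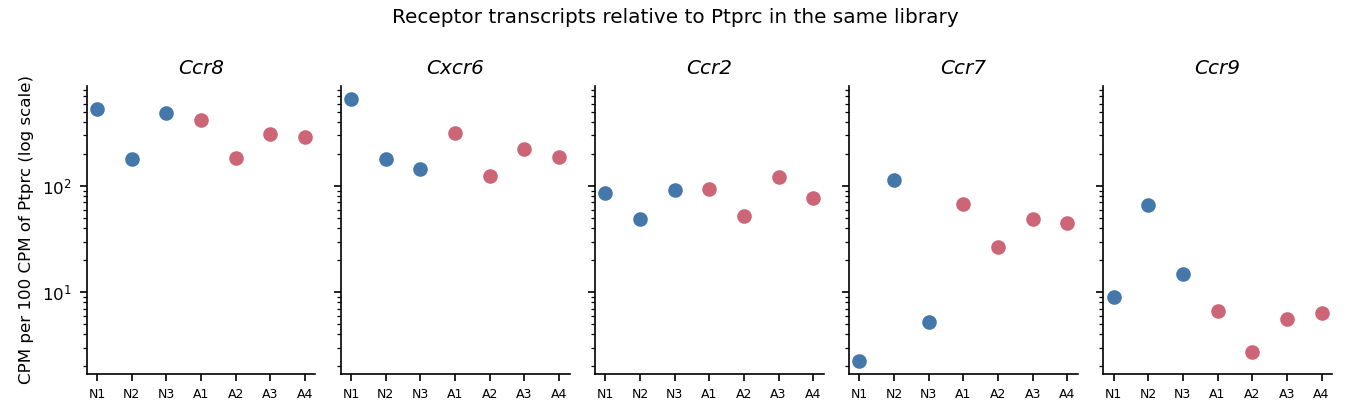
Points give 5 receptors in CPM per 100 CPM of Ptprc, on a shared log scale, for naive (N1 to N3, blue) and allograft (A1 to A4, red) libraries. For Ccr7, N2 (113) lies above the allografts (26.8 to 68.3) and N1 and N3 (2.25 and 5.17) below them, and for Ccr9 all 3 naive libraries lie above the allografts (2.72 to 6.60).

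The same measure of likeness was applied to the remaining receptors. Cd44, an adhesion receptor, was closest to Ccr2 (root mean square difference 0.236 over 7 libraries), and Gfi1, a transcription factor needed by ILC2s, was closest to Ccr8 (0.190). Tcf7, which encodes the transcription factor TCF-1, was closest to Ccr7 (0.560), with 0.943, 0.857 and 4.68 CPM in the naive and 21.5 to 48.2 CPM in the allograft libraries. The next closest to Ccr7 were Susd6 (0.566) and Ms4a6b (0.575). Pnrc1 was closest to Ccr9 (0.132), AB124611 to Cxcr4 (0.352) and Susd6 to Ccr6 (0.746). These distances were ranked over 9656 genes. They include naive replicate 2, where Ccr2, Ccr8, Cxcr6, Cd44, Gfi1 and Cd53 were each lowest, and were not computed without it.

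The other genes of the chemokine system were read from the same fit. Median log2 fold changes were 1.19 for the other receptors, 0.21 for the ligands and 0.86 for the recirculation genes, against -0.01 for all genes, and without naive replicate 2 they were 2.11, 2.73 and 0.64, against 0.23. Of 14 other chemokine receptors, 9 were tested and 0 passed with edgeR, with 1 at an unadjusted p under 0.05 and 0 called by DESeq2. Ccr1 and Ccr3, receptors for inflammatory chemokines such as Ccl3, Ccl5 and Ccl11, were higher in every allograft than in every naive library. Ccr1 measured 3.54, 1.08 and 0 CPM in naive replicates 1 to 3 and 13.0 to 18.5 CPM in the allografts (log2 fold change 3.26, edgeR adjusted p = 0.570). Ccr3, known from eosinophils, measured 9.39, 0 and 0 CPM against 15.9 to 24.6 CPM (2.72, edgeR adjusted p = 0.765). Ccr10 had 0 counts in the naive libraries and 1.57, 1.51, 0 and 0.412 CPM in the allografts (edgeR adjusted p = 0.341). Ackr3, a scavenging receptor for Cxcl12, was at 33.3 CPM in naive replicate 2, at 0 in the other naive libraries and at 0 to 2.78 CPM in the allografts (edgeR adjusted p = 0.737).

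Of 16 ligands of the 9 receptors, 13 were tested and 0 passed with edgeR, with 2 at an unadjusted p under 0.05 and 1, Ccl17, called by DESeq2. Both ligands of Ccr4 were higher in every allograft than in every naive library. Ccl17 measured 0, 6.11 and 10.2 CPM in naive replicates 1 to 3 and 242, 247, 282 and 209.9 CPM in allograft replicates 1 to 4 (log2 fold change 5.21, SE 1.66, edgeR adjusted p = 0.341, and 0.0351 with DESeq2). Ccl22 measured 0, 1.43 and 0 CPM against 69.4, 41.4, 68.6 and 36.3 CPM (6.26, SE 2.09, edgeR adjusted p = 0.341). Without naive replicate 2, Ccl22 was at least 860-fold higher than the floor of 3 counts (edgeR adjusted p = 0.0161). Both chemokines are also made by dendritic cells, whose markers are given above beside Ccr7, and their part in these levels was not tested. The ligands of Ccr7, Ccl19 and Ccl21a, stayed at or below 2.99 and 13.0 CPM in all libraries. Ccl21a and Cxcl11 were named by the smallest p after these, with 5.33 ± 5.35 (SD, n = 4) and 0.793 ± 0.744 CPM in the allografts (edgeR adjusted p = 0.741 and 0.727). Without naive replicate 2, Ccl7 passed as well (named after its values were seen), at least 91.3-fold higher (edgeR adjusted p = 0.0433), although naive replicate 2 itself held 2.33 CPM, within the allograft range of 2.27 to 7.53. The bounds of Ccl22 and Ccl7 rest on 0 counts in naive replicates 1 and 3 and cover counting error only.

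Of 24 genes that carry the receptor signal, all were tested and 0 passed with edgeR, with 0 at an unadjusted p under 0.05 and 0 called by DESeq2. The median of their log2 fold changes was 0.50, against -0.01 for all genes, and when naive replicate 2 was left out it was 0.02, against 0.23. Gnai2, the main inhibitory G protein subunit of leukocytes, was at 359, 67.4 and 207 CPM in the naive and at 410 to 539 CPM in the allograft libraries (log2 fold change 1.02, SE 0.453, edgeR adjusted p = 0.513). Pik3r5, a regulatory subunit of phosphoinositide 3-kinase gamma, was at 4.05, 0.659 and 34.5 CPM against 46.6 to 73.9 CPM (2.06, edgeR adjusted p = 0.613). Grk2, a kinase that desensitizes receptors, had a log2 fold change of 0.89 (edgeR adjusted p = 0.711), and Rgs16, which shortens G protein signals, had one of 2.33 (edgeR adjusted p = 0.751).

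Of 8 genes of lymph node recirculation, all were tested and 0 passed with edgeR, with 0 at an unadjusted p under 0.05 and 0 called by DESeq2. Gpr183, a receptor for oxysterols that positions lymphocytes, was at 103, 6.35 and 192 CPM in the naive and at 231 to 333 CPM in the allograft libraries (log2 fold change 1.39, edgeR adjusted p = 0.677). Itgb7, an integrin chain, was at 635, 14.7 and 360 CPM against 664 to 1038 CPM (1.41, edgeR adjusted p = 0.712). Klf2, a transcription factor of circulating lymphocytes, was at 126, 93.5 and 369 CPM against 105 to 127 CPM (-0.95, edgeR adjusted p = 0.532), and Itga4 had a log2 fold change of 0.99 (edgeR adjusted p = 0.760).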

How the data were processed

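RNA of sorted heart ILC2s was measured in 3 naive and 4 allograft libraries, grouped by sample title. Per the labels' protocols, a single-cell kit served for full-length cDNA amplification. The authors deposited whole-number counts per gene and FPKM for the same 55335 identifiers. FastQC 0.11.5, STAR 2.5.3a, StringTie 1.3.1c, DESeq2 1.16.1 and build mm10 are named in the submitters' processing notes, without their roles, and any use of strand is not given in the sources used here. Both tables held the same measurement: after 1 scaling factor for each library, a gene's ratio of FPKM to CPM varied with an SD of 0.00248 (log2, 7340 genes whose counts were 100 or more throughout), and 0 columns of per-sample values were left over.

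CPM is the deposited count scaled to the library total. Groups were compared with edgeR 4.0.16 (R 4.3.3), using its quasi-likelihood test on the counts of all genes with TMM normalization, filterByExpr and Benjamini-Hochberg adjustment at 0.05. The SE is that implied by the F value. A fold against a group at 0 was computed against 3 counts per library, a bound on counting error only. DESeq2 1.42.0, limma 3.58.1 on log2(FPKM + 0.1) and log2(FPKM + 1), DESeq2 size factors, other filters, a replicate block and leaving out each library were alternatives. CPM per kilobase of merged exons and of the principal transcript were added as length alternatives after the data were seen. The 9 receptors, 4 lists of chemokine system genes (62 genes, 54 tested) and 8 lists of marker genes of other cell types were chosen with earlier results of these data known. Named genes were all 9 receptors, per list every gene past the threshold or else the 4 with the smallest p, and per receptor the 3 genes of average log2 CPM of at least 3 with the smallest root mean square difference of centred log2 CPM (prior count 2), of which the closest are printed. Promoter sequences came from RefSeq (GRCm38.p6). Some genes of the lists are not reported here.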

Additional observations from a re-analysis of the deposited data

Results flagged for a closer look

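Among 10 receptor values checked across the 4 allografts, of which chance would single out about 0.5, 3 had 1 library far from the rest by Dixon's criterion. Ccr4 was lowest in allograft replicate 1 (30.0 CPM, against 39.6 to 40.4 CPM in the others). Ccr6 was highest in allograft replicate 2 (2.28 CPM, against 0.432 to 0.563 CPM). Cxcr4 was highest in allograft replicate 4 (37.1 CPM, against 28.3 to 29.7 CPM).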

How the results depend on the processing

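Of 123 log2 fold changes of the receptors under alternatives that gave a p, 103 kept direction and side of the threshold, 14 reversed and 6 newly passed, and 2 had no p (Ccr4 and Cxcr3 with DESeq2). Over all genes, 6 passed with edgeR, 1224 with DESeq2, 201 and 76 with limma (pseudocounts 0.1 and 1), and 0 to 560 when 1 library was left out (107 without naive replicate 1, 560 without naive replicate 2). DESeq2 size factors and no filter each gave 4. Receptors passing went from 0 to 2 with DESeq2, 1 and 1 with limma, and 0 to 2 without 1 library. Genes of the lists passing went from 0 to 1 with DESeq2, 1 and 2 with limma, and 0 to 3 without 1 library. Receptors above in every allograft went from 2 to 1 relative to Ptprc and 2 to 5 without 1 library (4 without naive replicate 1 and 5 without naive replicate 3, against 28.5% and 22.5% of all genes), and those below from 0 to 1 and 0 to 0. Ccr8 reversed to -0.0345 with DESeq2 size factors and -0.0595 with DESeq2, and ran from -0.52 to 1.17 without 1 library. Without 1 library Ccr9 ran from -1.12 to 0.64, Cxcr6 from -0.26 to 1.21, Cxcr4 from -0.69 to 2.49 and Cxcr3 from -1.88 to 10.15, the last a fit against libraries at 0 and no bound. With limma, Cxcr3 became 1.67 and 0.12 and Cxcr4 2.04 and 1.25. Deviations of same-numbered libraries had r of 0.0169, -0.0196 and 0.0360. Every naive and allograft pair lay between -0.0870 and 0.0760, so this check could neither show nor exclude pairing by number. With the replicate block 0 genes passed (252 at an unadjusted p under 0.05), Cxcr3 became 7.57 and Cxcr4 1.74. Of the 3 naive libraries, 1 correlated best with its own number. The cause of these shifts was not tested. With 3 naive libraries that differ this much, moderate changes of the receptors could not be resolved.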

Other observations

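The ratio of Ccr8 to Cxcr6, both as FPKM, was 1.33 in naive replicate 1, 1.65 in naive replicate 2 and 5.54 in naive replicate 3, and lay between 2.19 and 2.51 in the 4 allografts. Ccr2 held 1.52%, 1.298% and 2.53% of the summed receptor FPKM in naive replicates 1 to 3 and 2.32% to 4.09% in the allografts.

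Among pairs of the 9 receptors, Ccr2 and Ccr8 had the most similar profiles, with a root mean square difference of centred log2 CPM of 0.397 over the 7 libraries. Ccr8 with Cxcr6 (0.597) and Ccr8 with Cxcr4 (0.600) followed, and Ccr6 with Ccr7, the pair higher in every allograft, had 1.05. Ccr2, Ccr8, Cxcr6 and Cxcr4 were each lowest in naive replicate 2. That shared low value enters these distances, which were not computed without that library.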
